A study of Mus musculus with 8 samples.

Results

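Testis RNA from house mice labelled castaneus was compared with testis RNA from house mice labelled musculus. The comparison rests on 4 of the 8 arrays of the series, 2 for each group, chosen by the titles that name Mus musculus castaneus or Mus musculus musculus. The other 4 arrays, 2 labelled domesticus and 2 labelled ssp, entered the estimate of the spread between arrays and are otherwise used only to show where a level lay outside the pair. All 8 samples were total RNA of testis hybridised to an Affymetrix expression array, and the series addresses differential expression in testis among house mice. The labels give no strain, origin, age, treatment or number of animals for either group, and they call the 2 arrays of a group technical replicates. Every p-value below therefore measures the spread between technical replicate arrays of 1 RNA source per group, not the spread between animals, and every difference is one between these RNA samples. In whole tissue, fewer cells of a type and less RNA per cell cannot be told apart.

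Castaneus and musculus are subspecies of the house mouse that can interbreed and that separated recently on an evolutionary scale. The testis holds seminiferous tubules, in which spermatogonia divide, spermatocytes go through meiosis and spermatids are remodelled into sperm beside Sertoli cells. Between the tubules lies the interstitium, with Leydig cells that turn cholesterol into testosterone, macrophages, vessels and connective tissue. Most of the RNA of an adult testis comes from germ cells, so transcripts of interstitial cells are a small part of the total.

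The 4 arrays carried the transcripts of a testis with maturing spermatids. Protamine 1 (Prm1), which packs sperm DNA, read 53756 and 78089.7 on the castaneus arrays and 55982 and 44770.2 on the musculus arrays, and the outer dense fibre protein gene Odf1 read 36344 to 50706 over the 4 arrays. The probe set of Prm2, the other protamine, was dim on every array, at 115 to 224. Replicate arrays were somewhat closer to each other than to the other group. Their log2 intensities over the 8874 tested probe sets differed by a root mean square of 0.83 in both groups, against 0.94 to 1.07 for the 4 castaneus and musculus array pairs. Within a group 82.8% of probe sets lay within 2-fold on the 2 arrays, and 73.2% to 79.6% did between groups.

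Differences were few and of both signs. A probe set, which is the group of short probes that reports 1 transcript, was called if its log2 difference was at least 1 and limma's moderated p, adjusted by Benjamini-Hochberg over all tested probe sets, lay under 0.05. By this rule 84 probe sets were called, 0.947% of those tested. Of these, 40 (0.451%) were higher in castaneus and 44 (0.496%) higher in musculus, and 72 of the 84 carried a single gene symbol, standing for 67 genes. With each gene taken by its brightest tested probe set, 58 of 6581 measured genes were called, or 0.881%. This is the share to set beside the counts of the gene lists below. The median difference over all tested probe sets was 0.00 on the log2 scale, and 1194 had an unadjusted p under 0.05. Called differences ran from 3.01-fold to 91.1-fold with a median of 6.67-fold, and their log2 standard errors from 0.23 to 0.71. The castaneus and musculus arrays did not overlap at any called probe set, but neither did they at 44.4% of all tested probe sets, so absence of overlap alone says little with 2 arrays a group. The number of calls depended on the arrays in the fit and on its settings. With only the 4 castaneus and musculus arrays in the fit, limma called 0 probe sets, with 1145 at an unadjusted p under 0.05. Fits without 1 of these 4 arrays, which leave 1 array in a group, are given with the processing below. Of the 10 other ways of processing that kept all 8 arrays, 23 of the 84 were called in every one.

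**Figure D1:**
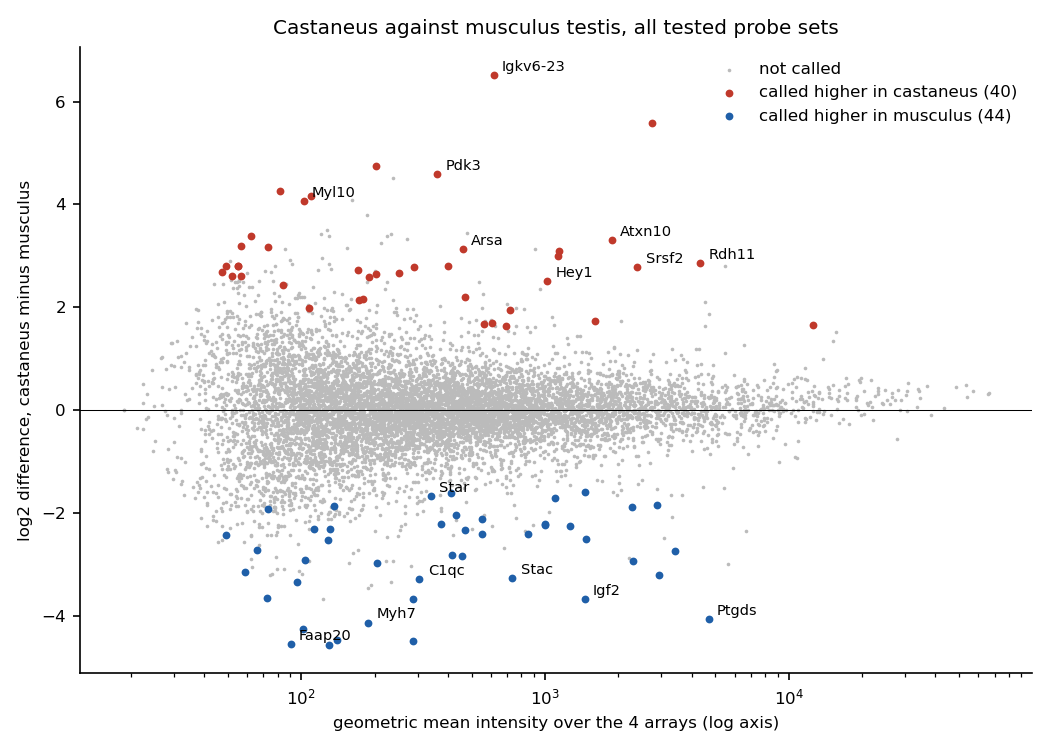
Log2 difference between castaneus and musculus against the geometric mean intensity over the 4 arrays (log axis) for each of the 8874 tested probe sets, with the 40 called higher in castaneus in red, the 44 called higher in musculus in blue and the rest in grey. Called differences lie on both sides of 0, the brightest and dimmest tested probe sets are grey, and the grey cloud widens towards low intensity.

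Among the genes higher in castaneus, the X-linked kinase gene Pdk3 had replicate arrays that lay close together. Pdk3 phosphorylates and thereby turns off the pyruvate dehydrogenase complex, which feeds pyruvate into the mitochondrial citric acid cycle. It read 1728 and 1807 on the castaneus arrays and 66.9 and 80.8 on the musculus arrays. Both castaneus values lay far above both musculus values, a log2 difference of 4.59 (SE 0.26, limma adjusted p = 0.00696). The means in domesticus and ssp, 2429 and 2398, were close to that of castaneus, so musculus was the group that stood apart. Of the 8 measured genes of the pyruvate dehydrogenase list, Pdk3 was the 1 that was called, against 0.881% of all measured genes. The dihydrolipoamide acetyltransferase Dlat, the core subunit, read 888 and 815 in castaneus and 482 and 483 in musculus without passing (adjusted p = 0.193), and the testis form of the E1 subunit, Pdha2, read 5065 to 5772 over the 4 arrays.

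Several bright transcripts showed the same layout, with castaneus, domesticus and ssp together and musculus low. Atxn10, whose human counterpart carries the repeat of a spinocerebellar ataxia, read 5575 and 6281 in castaneus against 569 and 632 in musculus, a 9.87-fold difference (SE 0.25 log2, limma adjusted p = 0.00701). Fyttd1, which helps to export mRNA from the nucleus, read 3486 and 2914 against 481 and 335. Srsf2, a splicing factor of the serine and arginine rich family, read 5898 and 6677 against 717 and 1165. Arsa, the lysosomal sulfatase that degrades sulfatides, read 1462 and 1267 against 172 and 140.2, an 8.76-fold difference. Sephs2, which makes the selenium donor for selenoproteins, read 3029.8 and 3636 against 539 and 281. In each of these 5 genes both castaneus arrays were several times brighter than both musculus arrays.

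Rdh11 and Adh4, enzymes that oxidise or reduce retinol, retinal or alcohols, were also higher in castaneus. Rdh11, a retinal reductase of the endoplasmic reticulum, read 8751 and 15607 in castaneus and 1511 and 1702 in musculus, a 7.29-fold difference (SE 0.40 log2, limma adjusted p = 0.0449). Its second probe set pointed the same way, at 12412 and 6579.8 against 2892 and 2099, without passing (adjusted p = 0.18). Adh4, an alcohol dehydrogenase that also oxidises retinol, read 139 and 103 in castaneus and lay at the floor of 18.7 units on both musculus arrays, a difference of at least 6.40-fold. A second Adh4 probe set read 57.9 and 67.0 in castaneus and at most 47.0 in musculus and did not pass (adjusted p = 0.428). Of the 13 measured alcohol and aldehyde dehydrogenases, Adh4 was the 1 called, against 0.881% of all measured genes. In this list 8 had a negative difference and the median was -0.27. Adh1, the class I alcohol dehydrogenase, went the other way, at 53.5 and 66.0 in castaneus and 495 and 798 in musculus, without passing (adjusted p = 0.066). Aldh1a1 and Aldh1a2, which make retinoic acid from retinal, had log2 differences of -0.79 and -0.37 and did not pass.

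Other castaneus-high genes had varied roles. In signalling, Hey1, a transcriptional repressor downstream of Notch, read 2360.1 and 2532 in castaneus and 405 and 452 in musculus, a 5.72-fold difference with a small error (SE 0.23 log2, limma adjusted p = 0.0134). Egf, the epidermal growth factor, was 9.05-fold higher, Nmur1, a receptor for neuromedin U, 6.03-fold, and Cnga3, a subunit of a cyclic nucleotide-gated channel, 5.43-fold. Hey1 was the 1 called of 14 measured Notch pathway genes, against 0.881% of all measured genes. The ligand-activated receptors Notch1 to Notch4 had log2 differences of -0.24 to 0.56. In the making and sorting of proteins, Eprs, the glutamyl-prolyl tRNA synthetase, was 6.87-fold higher, Mtif2, the mitochondrial translation initiation factor, 4.59-fold, Arcn1, a coatomer subunit, 6.32-fold, Snx4, a sorting nexin, 6.96-fold, and Ssr1, of the translocon-associated complex, 3.12-fold. In metabolism, Ces1c, a carboxylesterase, was 6.59-fold higher and Adsl, an enzyme of purine synthesis, 4.44-fold. The other named genes higher in castaneus included Ctnna2, an alpha catenin of nerve cells (10.4-fold), Defa23, an alpha defensin (6.97-fold), Calml4, a calmodulin-like protein (6.11-fold), Riox2, a ribosomal oxygenase (4.42-fold), Zdhhc5, a palmitoyl transferase (3.85-fold), Phospho2, a phosphatase (3.32-fold), and Rsu1, a partner of focal adhesions (3.26-fold). A brighter Ctnna2 probe set read 443.5 and 495.4 in castaneus and 337.8 and 361.5 in musculus without passing (adjusted p = 0.64). A further, dimmer Ctnna2 probe set had a log2 difference of -0.33. The other probe sets of Arcn1 and Ssr1 had log2 differences of 0.15 and -0.12. Ces1d, a relative of Ces1c, read 437 and 416 against 69.8 and 20.5 without passing (adjusted p = 0.0608).

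In musculus, prostaglandin D synthase was the brightest called gene and the one best supported by separate probe sets. Ptgds makes prostaglandin D2 and also serves as a carrier of small lipids in body fluids. The brightest of its 3 probe sets read 17114 and 21599.7 on the musculus arrays and 1354 and 965 on the castaneus arrays, a 16.8-fold difference (log2 difference -4.07, SE 0.35, limma adjusted p = 0.0106). The other 2 read 8001 and 9864 against 1158 and 1517, and 10839 and 7340.3 against 1317 and 700.4, and both were called. All 3 carry an identifier suffix that in the manufacturer's naming marks probes shared with related transcripts or chosen under fewer design rules. No other of the 7 measured prostaglandin genes was called, where 0.881% of all measured genes were. Ptgis, the prostacyclin synthase, read 721 and 504 in musculus and 313 and 249 in castaneus (adjusted p = 0.239), and the synthases Ptges and Tbxas1 had log2 differences of -0.52 and 0.27.

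Igf2, an imprinted growth factor expressed from the paternal allele in most tissues, was 12.8-fold higher in musculus. It read 4215 and 6406 there and 297 and 555 in castaneus (log2 difference -3.68, SE 0.41, limma adjusted p = 0.0212). Both musculus arrays stood above both castaneus arrays and above the means of domesticus and ssp, 569.9 and 608. Igf2 was the 1 called of 17 measured imprinted genes, against 0.881% of all measured genes. Of the 17, 12 had a negative difference, the median being -0.37. The imprinted noncoding RNA Meg3 read 133 and 175 in musculus and 37.0 and 26.5 in castaneus without passing (adjusted p = 0.0627), and Peg10, a retrotransposon-derived imprinted gene, 129.9 and 92.0 against 50.3 and 21.7 (adjusted p = 0.166). Igf2r, the receptor that clears Igf2, had a log2 difference of -0.34.

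Pcolce, Crtap, Apoe, Elovl5, Agpat1 and Slc25a10 were also higher in musculus, by roles that no list joined. Pcolce, which enhances the cleavage of procollagen, read 2655 and 2899.8 in musculus and 592 and 566 in castaneus, a 4.79-fold difference (SE 0.24 log2, limma adjusted p = 0.0212). Crtap, part of the complex that hydroxylates a proline of collagen chains, read 2051 and 2284 against 499 and 422, a 4.71-fold difference. Apoe, the lipoprotein component that macrophages and steroid-making cells secrete, read 4285 and 4498 against 1236 and 1139.6. Elovl5, an elongase of polyunsaturated fatty acids, read 2184 and 2159.7 against 500.1 and 432, and Agpat1, which makes phosphatidic acid, 1999 and 1911 against 325 and 421. Slc25a10, the mitochondrial dicarboxylate carrier, was 5.06-fold higher. It was the 1 called of 112 measured solute carriers, a share close to the 0.881% of all measured genes. In each of these 6 genes the 2 arrays of a group lay much closer to each other than to the other group.

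The other musculus-high genes had varied roles. Stac, an adaptor of muscle and nerve cells, read 2413 and 2159.6 in musculus and 257 and 218 in castaneus, a 9.66-fold difference (SE 0.24 log2, limma adjusted p = 0.00701). Syt11, a synaptotagmin of membrane traffic, was 12.7-fold higher, Fkbp1b, which binds calcium release channels, 7.02-fold, Hpf1, a cofactor that directs ADP-ribosylation to serine, 4.63-fold, and Klhdc2, which brings proteins to a ubiquitin ligase for breakdown, 4.10-fold. Faap20, of the Fanconi anaemia core complex, read 350.0 and 546 in musculus, while both castaneus arrays lay at the floor, a difference of at least 23.4-fold. Its second probe set read 306 and 201 against 71.3 and 80.3 and did not pass (adjusted p = 0.325). Glul, glutamine synthetase, read 270.5 and 357 against 59.2 and 48.9 by 1 probe set, whereas the brighter one read 661 and 568 against 388 and 602 and did not pass (adjusted p = 0.76).

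**Figure D2:**
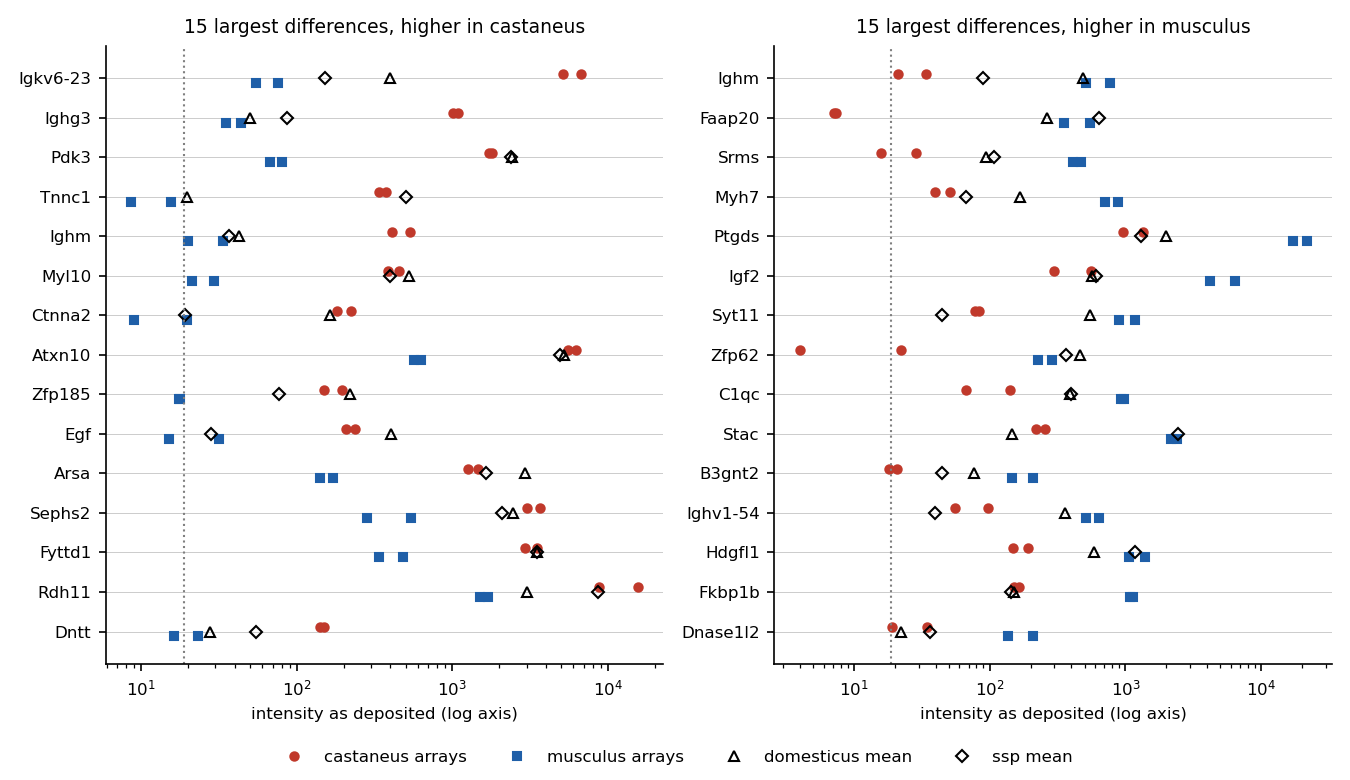
Intensity as deposited (log axis) of the 15 genes with the largest called difference in each direction, 1 probe set a gene. Red circles are the castaneus arrays, blue squares the musculus arrays, open triangles and diamonds the domesticus and ssp means, and the dotted line the floor of 18.7. The castaneus and musculus arrays are separate in all 30 rows, while domesticus and ssp lie beside castaneus for Pdk3, Atxn10, Arsa and Ptgds and beside musculus for Ighm (left panel), Faap20 and Zfp62.

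The levels in domesticus and ssp showed which of the pair stood apart. Nearness was taken on the log2 scale. For 36 of the 84 called probe sets, or 42.9%, both other groups lay nearer to castaneus, and for 24, or 28.6%, both lay nearer to musculus. Over all tested probe sets these shares were 31.1% and 29.0%. The remaining 24 called probe sets were divided, 17 with domesticus nearer to musculus and ssp nearer to castaneus and 7 the other way round. Musculus alone was low for Pdk3, Atxn10, Arsa and Myl10 and alone high for Igf2, Myh7, Fkbp1b and 2 of the 3 Ptgds probe sets. By the other Ptgds probe set domesticus, at 3623, lay nearer to musculus. Castaneus alone was high for Hey1 and for probe sets of Igkv6-23, Ighg3 and Ighm, and alone low for Faap20, Zfp62, C1qc and Glul. Rdh11 was a divided case, at 3022 in domesticus and 8674 in ssp. These shares are a description, since no test was made of where the other groups lie.

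Transcripts of the Leydig cell steroid pathway had the largest median shift of the gene lists, towards musculus. Of 13 measured genes, 12 had a negative difference and the median was -1.18 on the log2 scale, or 2.27-fold, against 0.00 over all genes. Only Star passed the test, so 1 of 13 was called, where 0.881% of the 6581 measured genes were called when each was taken by its brightest tested probe set. The arrays of the groups did not overlap for 11 of the 13, against 45.5% of all measured genes, both counted in either direction. Inha, higher on both castaneus arrays, was among the 11. The median stayed between -1.20 and -0.94 under all alternatives, also without each array in turn.

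Within the pathway, Star carries cholesterol into the mitochondrion, Cyp11a1 cleaves its side chain, and Cyp17a1, Hsd3b1 and Hsd17b3 lead on to testosterone. Star read 594 and 621 in musculus and 175 and 206 in castaneus, a 3.20-fold difference (SE 0.25 log2, limma adjusted p = 0.0455). A second, dimmer Star probe set read 163 and 144 against 104 and 187 and did not pass. Cyp11a1 read 1956 and 1529.7 against 468 and 154, with the castaneus arrays far apart, and missed the threshold (adjusted p = 0.0968). Cyp17a1 read 8656 and 9709 against 3715 and 2791 (adjusted p = 0.0628), Hsd3b1 1476 and 1885 against 793 and 679.6 (adjusted p = 0.157), and Hsd17b3 545 and 424 against 319 and 219 (adjusted p = 0.31).

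The upstream parts of the Leydig list went the same way by less. Nr5a1, the nuclear receptor SF-1 that switches on steroid-making genes, read 4425 and 3939 in musculus and 2294 and 2624 in castaneus. Scarb1, which takes up cholesterol from lipoproteins, read 1520.2 and 1461 against 889 and 649.6. Neither passed. Insl3, the Leydig hormone of testis descent, and Hsd11b1 had replicate arrays so far apart, at 219 and 89.2 and at 320.0 and 126 in musculus, that no difference was detectable. Inha, the inhibin alpha chain, which Sertoli cells also make, was the 1 member with a positive difference, at 803 and 1200.4 in castaneus and 679 and 515 in musculus. The summed intensity of the 13 was 13710.3 to 14114 on the castaneus arrays and 26922 to 29529 on the musculus arrays.

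The cholesterol synthesis enzymes, which supply the Leydig pathway and are also active in germ cells, leaned towards musculus without a single call. Of 15 measured enzymes 14 had a negative difference, with a median of -0.77, and the arrays did not overlap for 12, against 45.5% of all measured genes. The median stayed between -0.89 and -0.67 under all alternatives. Hmgcs1, at the entry of the pathway, read 989 and 649 in musculus and 368 and 422 in castaneus (adjusted p = 0.212). Mvd, which ends the mevalonate steps, read 206 and 279 against 51.0 and 45.4 (adjusted p = 0.106), and Msmo1, a methyl sterol oxidase of the late steps, 258 and 471 against 194 and 99.7 (adjusted p = 0.301). Fdps, the farnesyl diphosphate synthase, read 5775 and 6279 against 3909 and 3903. The squalene enzymes Fdft1 and Sqle were level, with log2 differences of 0.02 and -0.02 and standard errors of 0.25 and 0.24.

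**Figure D3:**
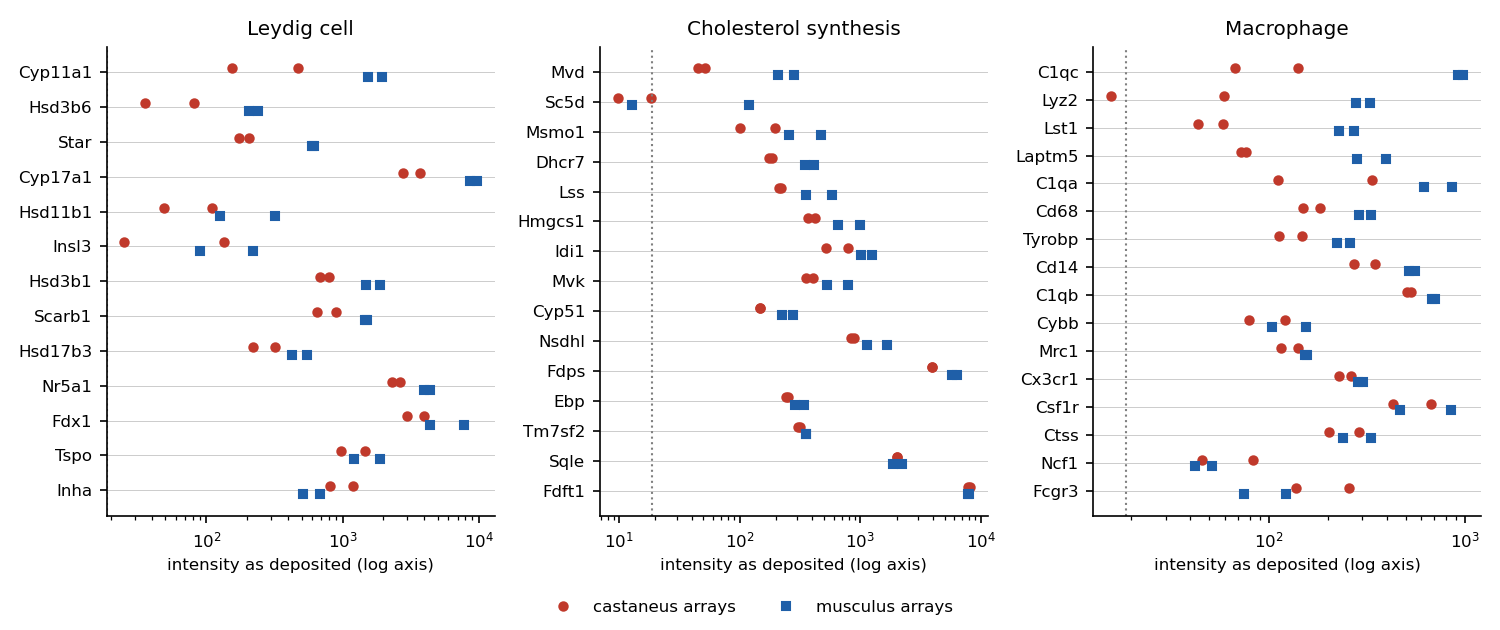
Intensity as deposited (log axis) of every measured gene of the Leydig cell, cholesterol synthesis and macrophage lists, red circles for the 2 castaneus arrays and blue squares for the 2 musculus arrays, ordered by difference, with the floor of 18.7 dotted where it falls in range. Musculus arrays lie to the right of castaneus arrays in most rows, and the rows at the bottom, Inha, Fdft1, Ncf1 and Fcgr3 among them, do not follow.

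The upstream sequence of the cholesterol enzymes is shown because 14 of the 15 differences had the same sign and the pathway is known for shared promoter elements. The CCAAT box, which nuclear factor Y binds, was searched as CCAAT on both strands in the 250 bases before each RefSeq start. It was present for all 12 of the 15 measured enzymes that had an entry, against 37.5% of 27025 genes with an entry. Fdps and the level enzymes Fdft1 and Sqle had no entry, so all 12 searched had a negative difference. Shifted and level enzymes could therefore not be compared for the box. Of the 8 measured Leydig genes with an entry, 4 had it. The core of the sterol regulatory element, searched as TCACCCCA on both strands, was present for Hmgcs1 alone of the 12 and for 1.54% of all genes. The SF-1 element AAGGTCA was found for none of the 8 measured Leydig genes with an entry, for 2 of the 12 cholesterol enzymes and for 4.7% of all genes. Among the called genes with an entry, the CCAAT box was present for 13 of 29 higher in castaneus and 12 of 27 higher in musculus. The sequences are those of the C57BL/6J reference, GRCm38.p6, and not of the mice studied, and a match is a description of letters, not a bound site. Enzymes of an early, a middle and a late step are printed 5′ to 3′ on the gene's strand, with matches to any of these elements in capitals.

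Hmgcs1 at chr13:119690101-119690350, plus strand: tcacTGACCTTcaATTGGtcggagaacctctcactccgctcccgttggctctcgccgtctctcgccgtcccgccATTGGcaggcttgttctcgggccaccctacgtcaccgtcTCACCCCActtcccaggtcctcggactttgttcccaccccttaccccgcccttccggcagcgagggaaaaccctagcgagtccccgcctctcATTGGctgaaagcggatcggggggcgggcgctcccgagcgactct
Mvd at chr8:122443423-122443672, minus strand: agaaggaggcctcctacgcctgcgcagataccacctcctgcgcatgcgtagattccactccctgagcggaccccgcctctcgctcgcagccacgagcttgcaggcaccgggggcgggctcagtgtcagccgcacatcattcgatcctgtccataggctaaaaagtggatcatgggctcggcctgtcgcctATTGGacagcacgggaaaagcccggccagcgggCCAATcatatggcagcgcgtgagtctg
Msmo1 at chr8:64733579-64733828, minus strand: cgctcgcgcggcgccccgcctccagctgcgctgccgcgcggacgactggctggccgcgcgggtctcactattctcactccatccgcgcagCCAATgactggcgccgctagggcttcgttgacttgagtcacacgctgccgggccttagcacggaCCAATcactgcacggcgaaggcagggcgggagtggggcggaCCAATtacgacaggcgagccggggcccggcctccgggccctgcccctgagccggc

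Hmgcs1 holds 3 CCAAT boxes and 1 SF-1 element on the opposite strand, the nearest box starting 45 bases before the start of transcription, and the sterol element core starting 137 bases before it. Mvd holds 2, starting 60 and 27 bases before the start, and Msmo1 holds 3, starting 160, 96 and 55 bases before it. All 3 enzymes read higher on both musculus arrays than on both castaneus arrays, as given above, without passing the test.

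Most macrophage transcripts had the same direction, and 2 of the 16 measured were called, both higher in musculus, against 0.881% of all measured genes. C1qc, a chain of the complement component C1q made by tissue macrophages, read 924 and 982 in musculus and 142 and 67.4 in castaneus, a 9.74-fold difference (SE 0.42 log2, limma adjusted p = 0.0344). Lst1, a leukocyte membrane protein, read 274 and 228 against 58.7 and 43.6, a 4.93-fold difference. The list held 14 genes with a negative difference, its median was -0.61, and the arrays did not overlap for 12, against 45.5% of all measured genes. Among these 12 was Fcgr3, which went the other way, at 75.2 and 122.8 in musculus and 138.5 and 257.6 in castaneus. Ncf1 also had a positive difference, of 0.39, and its arrays overlapped. C1qa read 862 and 617 against 335 and 112 without passing (adjusted p = 0.186), and C1qb, the third chain of the same protein, only 709 and 681 against 535 and 507. Lyz2, a lysozyme of macrophages, read 328 and 279.5 against 59.4 and 15.7 (adjusted p = 0.0702). The brightest probe set of the macrophage receptor gene Csf1r overlapped between the groups, at 854 and 465 in musculus and 432 and 675 in castaneus, whereas a dimmer one read 653 and 589.6 against 243 and 301 (adjusted p = 0.144). Summed intensities were 3156 and 3161 on the castaneus arrays and 5727 and 6358 on the musculus arrays.

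None of the 4 measured red blood cell genes was called, and they did not share a direction. Hba-a1, an alpha globin of red blood cells, read 13328 and 16970.5 in musculus and 4899 and 1767.5 in castaneus, and did not pass (adjusted p = 0.258). The summed intensity of the 4 measured red cell markers was 2277 to 5873 in castaneus and 14421 to 17935 in musculus, mostly of Hba-a1. Alas2, which starts haem synthesis in red cells, read 642 and 712 in musculus and 494 and 169 in castaneus, Ank1 overlapped, and Slc4a1, the red cell anion exchanger, went the other way at 31.3 and 25.1 in musculus and 112.5 and 85.1 in castaneus (adjusted p = 0.0716). The part of Hba-a1 RNA, and of blood, in the Leydig, macrophage and other musculus-high genes was not tested. Endothelial, fat and smooth muscle lists held 9, 5 and 7 measured genes and no call, with medians of -0.13, -0.37 and -0.07. No marker of the epididymis, the duct beside the testis, was called of 5 measured, and the members differed in level and direction. Its secreted Gpx5 and Lcn5 read 18.6 to 145 on the 4 arrays. Adam28 was brighter, at 1543.4 and 1791.4 in castaneus and 1006.9 and 1006.7 in musculus. Adam7 went the other way without overlap, with a log2 difference of -1.84 (limma adjusted p = 0.164). The part of epididymal RNA in these samples was not tested.

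No germ cell gene of the lists was called, and members went both ways. None of 15 elongating spermatid, 16 round spermatid, 10 meiotic and 9 spermatogonial genes was called, with medians of 0.29, 0.12, 0.13 and -0.11. Over all measured genes 0.881% were called, and at that share a list of this size would usually hold no call. Leaving out 1 array took the meiotic median to between -0.09 and 0.26 and the spermatogonial one to between -0.58 and 0.21, so neither had a settled sign. Ddx4, an RNA helicase of germ cells, read 4666 and 3379 in musculus and 1753 and 1238 in castaneus without passing (adjusted p = 0.148). Kit, a receptor of differentiating spermatogonia, had a log2 difference of -1.14 (adjusted p = 0.167), and Sycp1 and Mybl1, a synaptonemal complex protein and a meiotic transcription factor, of -1.06 and -1.86. The repair genes Brca2 and Brca1 had positive differences, of 1.14 and 1.03, and did not pass either. In the elongating spermatid list 13 of 15 had a positive difference, largest for Prm3, at 17790.1 and 21265 in castaneus and 7838 and 12244 in musculus (adjusted p = 0.229), and its median lay between 0.03 and 0.44 over the alternatives. Gapdhs and Pgk2, sperm forms of glycolytic enzymes, read 51433 and 62759.8 against 47304 and 36230.3 and 5631 and 4672 against 2983 and 3639.5, and 10 of the 14 germ cell energy genes had a positive difference without a call. Of 15 Sertoli cell genes, 8 had a positive and 7 a negative difference and none was called. The median was 0.03, and Clu, among the brightest, read 6072 to 7062 over the 4 arrays. The summed Sertoli intensity, 15233 to 15622 in castaneus and 14737 to 15601 in musculus, overlapped between the groups.

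Striated muscle genes split in direction. Of 23 measured, Tnnc1 and Myl10 were higher in castaneus, Myh7 was higher in musculus, and the other 20 were not called. Over all measured genes 0.881% were called. Tnnc1, the troponin C form of heart and slow fibres, read 340.2 and 377 in castaneus and was at the floor on both musculus arrays, a difference of at least 19.1-fold (SE 0.25 log2, limma adjusted p = 0.00696). The musculus arrays, deposited at 15.6 and 8.6, were set to the same floor and so added no spread to that SE. Myl10, a myosin light chain, read 452 and 388 against 29.2 and 21.3. Myh7, a myosin heavy chain of heart and slow fibres, read 39.6 and 51.1 in castaneus and 710.0 and 878 in musculus, a 17.6-fold difference, but by 1 of its 2 probe sets: the other read 89.7 and 156 in castaneus and 140.0 and 65.9 in musculus. Defining genes of muscle such as Ckm, the muscle creatine kinase, read 169 and 87.0 in castaneus and 206 and 168 in musculus, and Acta1, skeletal actin, was too dim to be tested, at 26.0 and 70.0 against 17.8 and 7.9. The summed intensity of the 23 overlapped, at 9749 to 11582 and 9226 to 9989. Capn3, the muscle calpain, which was in no list, was higher in castaneus by 2 probe sets, at 516 and 498 against 94.9 and 69.6 for the brighter of these. Its remaining probe set, the brightest, read 2578 and 1796 against 395 and 447 and did not pass (adjusted p = 0.0562).

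Immunoglobulin chains gave the largest single difference and the least agreement between probe sets. Igkv6-23, a kappa light chain variable gene, read 6679 and 5177 in castaneus and 75.9 and 54.9 in musculus, a 91.1-fold difference (SE 0.71 log2, limma adjusted p = 0.0212). Ighv1-54, a heavy chain variable gene, went the other way, at 513 and 639.6 in musculus and 97.1 and 55.4 in castaneus. Of the 21 immunoglobulin genes measured by their brightest probe set these 2 were called, against 0.881% of all measured genes, with a median over the 21 of 0.57. Without the second musculus array that median was -0.07. Ighm, the mu heavy chain, had 1 probe set at 407 and 535 in castaneus against 33.3 and 20.1 in musculus and another at 21.0 and 33.8 against 516 and 773, both called and in opposite directions. Ighg3, a gamma heavy chain, had 2 probe sets higher on both castaneus arrays, 1 of them called, and 3 with a negative difference. None of 8 measured markers of B and plasma cells, which make antibodies, was called. The joining chain Jchain read 334 and 236 in castaneus and 140.0 and 114.5 in musculus (adjusted p = 0.17).

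Other probe sets of the called genes gave a mixed account. Another tested probe set was present for 20 of the 67 genes, 31 probe sets in all. Of these, 19 had the sign of the called one and 12 the opposite sign, 4 were called in the same direction, and 1, of Ighm, in the opposite direction. A difference of at least 2-fold in the same direction was read by 11, among them those of Ptgds, Capn3, Rdh11, Faap20, Adh4 and Arsa. For Atxn10, Srsf2, Cnot7, Dntt, Ssr1 and Star the other probe set differed by about 0.13 or less on the log2 scale in either direction. The difference there rests on 1 probe set. An identifier suffix for probes shared with related transcripts or chosen under fewer rules was carried by 29.8% of called and 20.4% of all tested probe sets. Whether the probes match the transcripts of both mice equally well was not tested.

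**Figure D4:**
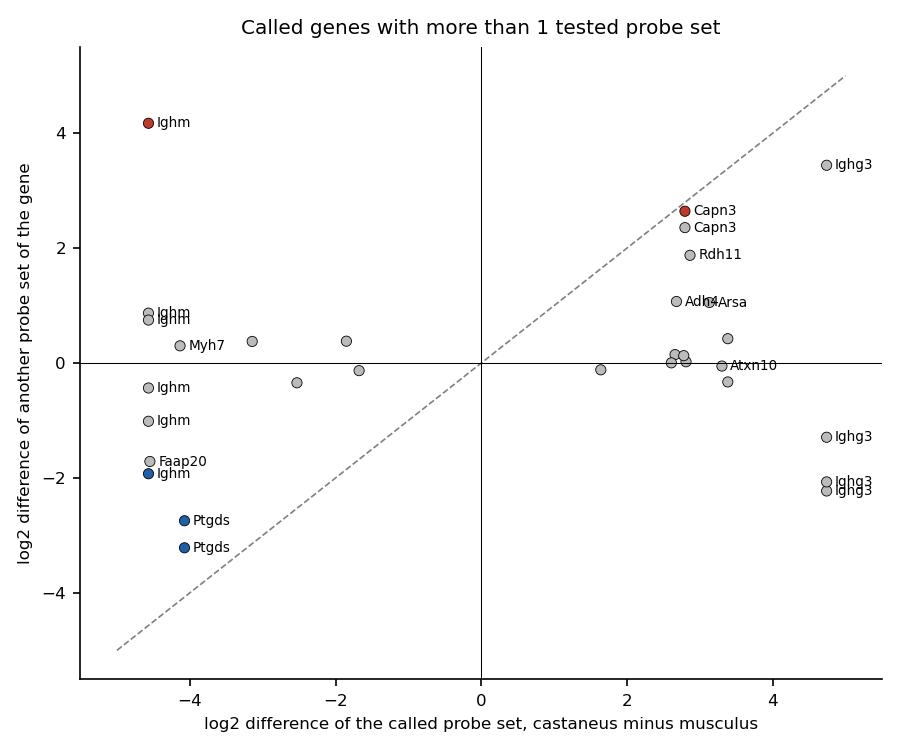
Log2 difference of each of the 31 other tested probe sets against that of the called probe set of the same gene, castaneus minus musculus on both axes; filled colours mark calls (red higher in castaneus, blue higher in musculus), grey is not called and the dashed line is equality. Capn3 lies near the line, and Ptgds and Rdh11 have the same sign on both axes with a smaller difference on the vertical one. Atxn10 lies near 0 on the vertical axis, and Ighm and Ighg3 fall on both sides.

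In broad lists of cell maintenance and gene families, calls were about as rare as the 0.881% over all genes. None of 28 ribosomal proteins, 40 proteasome subunits, 68 respiratory chain subunits and 59 chaperones was called, with medians of 0.32, 0.17, 0.00 and 0.04. Of 50 splicing genes Srsf2 was called, and of 73 zinc finger genes named Zfp, Zfp185 was higher in castaneus and Zfp62 in musculus. Zfp185 read 149 and 196 in castaneus and was at the floor on both musculus arrays, and Zfp62 read 288 and 227 in musculus and 22.3 and 4.0 in castaneus. None of 29 antigen presentation genes, 10 interferon-induced genes, 17 glutathione transferases, 25 serpins and kallikreins or 7 t-complex genes was called, with medians of -0.06, -0.07, -0.27, 0.32 and 0.23. Without the second musculus array the serpin and kallikrein median was -0.01 and the t-complex one -0.01, and without the first castaneus array the interferon-induced one was 0.40. Ifi35, an interferon-induced gene, read 794 and 559 in castaneus and 57.7 and 26.3 in musculus and missed the threshold (adjusted p = 0.0584).

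**Figure D5:**
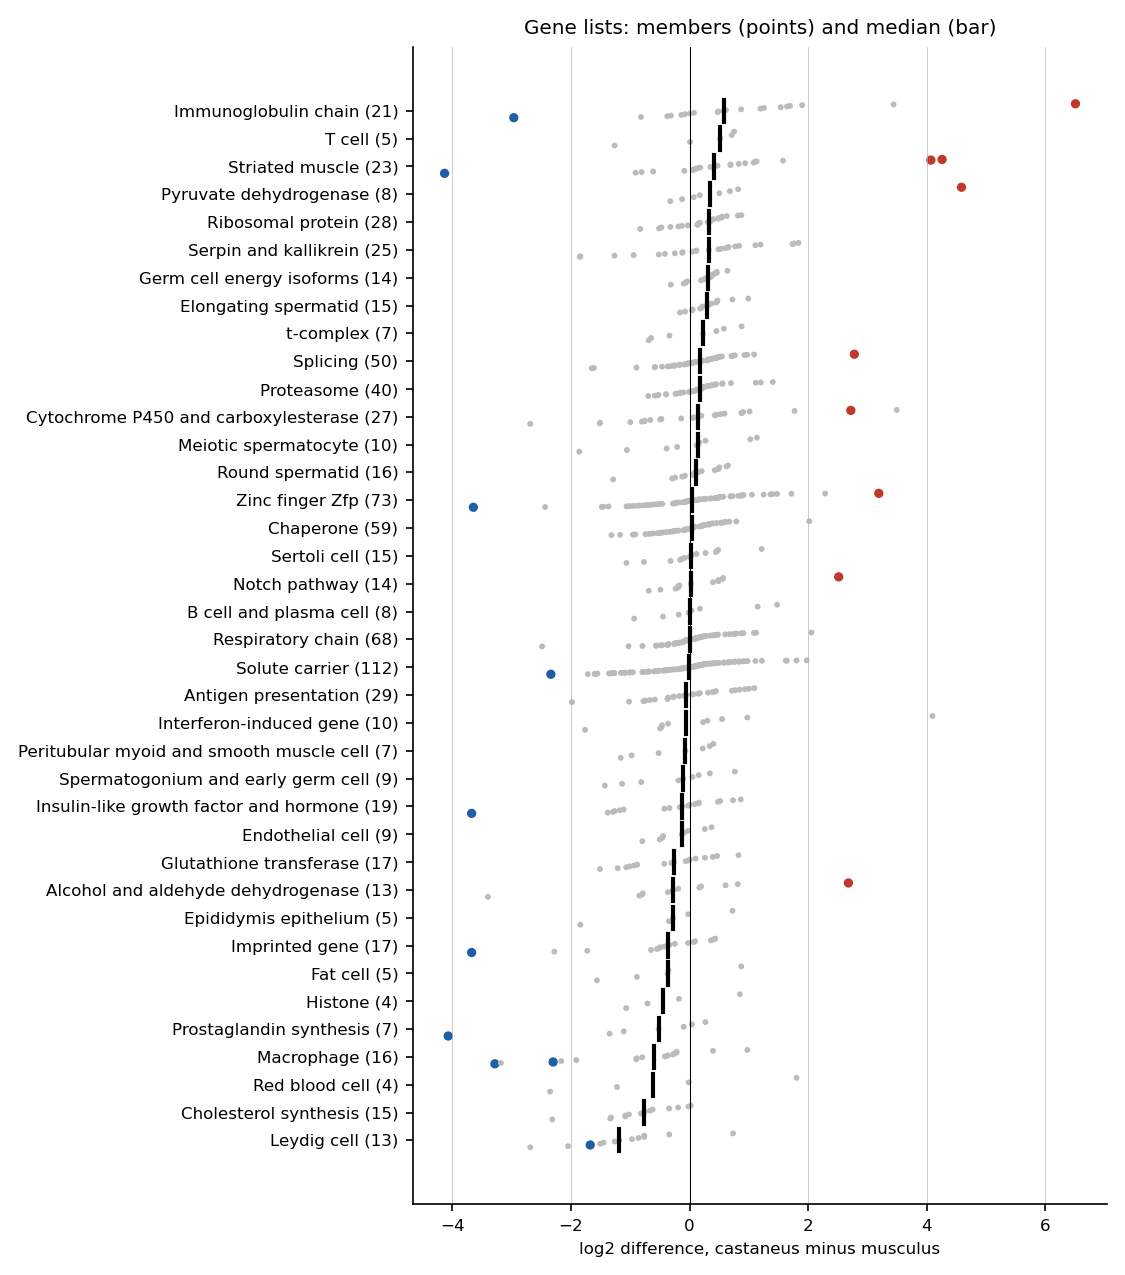
Log2 difference, castaneus minus musculus, of every measured gene in 38 lists; each point is a gene, red if called higher in castaneus and blue if called higher in musculus, and the black bar is the list's median. Leydig cell and cholesterol synthesis genes form the lists furthest to the left, with medians of -1.18 and -0.77, while called genes such as Pdk3, Hey1, Igf2 and Ptgds stand away from the other members of their lists.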

How the data were processed

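The deposited values are linear intensities per probe set for 8 Affymetrix arrays, processed by the authors before deposit. The labels used here do not state how probes were summarised. The 2% trimmed mean of the deposited intensities lay between 495.6 and 496.7 on every array, so the arrays had been scaled alike, and no further normalization was applied. Values under 18.7, the 10th percentile of all values, were set to that floor before taking log2, so a fold against a group at the floor is a lower bound. Arrays set to the floor show less spread than as deposited, which enters the SE and p-value of such probe sets. Probe sets above the 40th percentile of an array on at least 2 of the 8 arrays were tested, 8874 of 12422. Groups came from the sample titles. A model with 4 groups was fitted with limma 3.58.1 in R 4.3.3 (lmFit, eBayes, 4 residual degrees of freedom), after tests on simulated data, and p-values were adjusted over all tested probe sets. A fold is the ratio of geometric means. The array's annotation gave 1 gene symbol for 10833 probe sets, several for 396 and none for 1193, and 10817 were matched to RefSeq's gene table. In a gene list, each gene is taken by its brightest tested probe set.

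Castaneus and musculus array medians were 151.2 to 182.55, and 7.93% to 13.1% of values lay at the floor. Named genes are the 15 largest called differences in each direction, called list members, called genes by function and other probe sets of these. Further list members given as values were chosen for their role after their values were seen. The comparison, lists and genes were chosen with earlier results of these data known. Alternatives covered the floor, filter, normalization, variance model, threshold, replicate block and each array left out. Promoters are the 250 bases before each start in RefSeq's GRCm38.p6 table.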

Additional observations from a re-analysis of the deposited data

How the results depend on the processing

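Against 84 called probe sets (40 higher in castaneus, 44 in musculus), a floor at 50 units gave 142 (64 and 78), a 60th percentile filter 185 (87 and 98), a trended and robust variance 223 (106 and 117), no filter 32 (12 and 20), and testing against 1.5-fold 30 (12 and 18). With only the 4 castaneus and musculus arrays limma called 0 (1145 at an unadjusted p under 0.05), and leaving out single arrays gave 0 to 57 in all, 0 to 25 higher in castaneus and 0 to 32 in musculus. The counts were 0 without any single castaneus or musculus array, 30 without either domesticus array and 57 without either ssp array. With 1 array left in a group, that array is assumed to vary like the others. The fits with fewer arrays tested the same 8874 probe sets. The 60th percentile filter left 5882 to test and no filter 12422. The cause of the differing counts was not tested. No floor, an added constant of 16, median centring and quantile normalization gave 65 to 104. No called probe set could change direction when an array was left out, since the groups do not overlap there. The replicate block gave 63 calls (29 and 34), 52 of them among the 84, and of the 30 genes plotted with their arrays Zfp185, Sephs2, Dntt, B3gnt2, Ighv1-54 and Hdgfl1 lost the call. Deviations of same-numbered arrays correlated at 0.03 to 0.17 over the 6 pairs of groups, at 0.09 for castaneus and musculus, with 4 of the 6 pairs over 0.1. Since not every pair was over 0.1, the numbers were not taken as pairs. Of the list medians recomputed under all alternatives, 708 moved by less than the spread between arrays and 10 by more. Differences of dim genes are limited by the floor, which 13 called probe sets touched on at least 1 array.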

Other observations

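Called probe sets without a single gene symbol included very bright ones. The one with the largest difference read 18963 and 19378.5 in castaneus and 580.2 and 271 in musculus, a 48.3-fold difference (SE 0.71 log2, limma adjusted p = 0.0344), and its domesticus arrays read 657 and 2885. Another read 23527 and 21237 in castaneus, 7380.1 and 6817 in musculus and 16699 to 21146 on the other 4 arrays, so musculus alone was low. In the other direction, one read 564 and 779.5 in musculus, 24.7 and 35.8 in castaneus and 24.7 and 29.9 in domesticus, a 22.3-fold difference between musculus and castaneus.

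By chromosome, 9 of 268 tested probe sets of chromosome 12 were called, or 3.36%, against 0.947% of all tested. Of these, 5 belong to the immunoglobulin heavy chain genes Ighm, Ighg3 and Ighv1-54, and the others to Rdh11, Klhdc2, Fkbp1b and Ywhaq. No call fell among 351 tested on chromosome 10. On the X chromosome 2 of 216 were called, Pdk3 and Zfp185, both higher in castaneus, and none of 4 on the Y chromosome was called. No test was made of these shares, and probe sets of a gene are not independent.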
